A study of Mus musculus with 10 samples.

Results

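The Fc gamma receptor genes of the mouse, Fcgr1, Fcgr2b, Fcgr3 and Fcgr4, and Fcer1g, the gene of the signalling chain that the activating receptors share, were followed in bone marrow cells of mice given α-ketoglutarate (α-KG). They were taken by symbol, and all 5 were found among the 55367 genes of the deposited table. RNA came from bone marrow cells labelled BMMC, from mice given 1% α-KG in the drinking water (5 libraries, α-KG 1 to 5) or regular water (5 libraries, water 1 to 5). α-KG is a metabolite of the tricarboxylic acid cycle, and by its title the series deals with myeloproliferative neoplasms, in which myeloid cells are in excess. No source used here states genotype, strain, sex, age or how long the mice were treated. Since no label ties a library to an animal of its own, the p-values speak for the spread among libraries, which may be technical. Library totals ran from 14291364 to 21489380 counts in α-KG and from 16938450 to 22490118 in water, and both Xist and the Y-linked gene Ddx3y had counts in all 10 libraries.

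Fc gamma receptors bind the constant part of immunoglobulin G (IgG) and so let cells read antibody that has coated a microbe, a platelet or a red cell. The activating receptors of the mouse pair with the FcRγ chain, whose tyrosine motif (an ITAM) recruits the kinase Syk and starts uptake, oxidant release and cytokine production. The inhibitory receptor encoded by Fcgr2b carries a different motif (an ITIM) that recruits phosphatases. In marrow, monocytes, macrophages and neutrophils carry activating and inhibitory receptors, B cells carry the inhibitory one, and NK cells carry the receptor of Fcgr3.

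Fcgr2b, Fcgr4 and Fcgr3 lie next to each other on chromosome 1 (GRCm38, GENCODE M21), at 170958617 to 170976547 on the minus strand, 171018920 to 171029761 on the plus strand and 171051174 to 171064935 on the minus strand. Fcer1g lies farther along at 171229572 to 171234365 on the minus strand, and Fcgr1 is on chromosome 3 at 96282909 to 96293969 on the minus strand. All 5 are protein-coding. Sequence just before the start site is shown for Fcgr1 and Fcgr4, whose levels moved together within each group but apart between groups, and for Fcgr3, at 1 of its 2 RefSeq starts, as a gene of the same locus as Fcgr4. Each is the 250 bases before the RefSeq start site (GRCm38.p6), 5′ to 3′ on the strand of the gene, with matches to any of 3 motifs in capitals. The motifs were GAGGAA (the core bound by the myeloid factor PU.1, read as TTCCTC on the other strand), TTCNNNGAA (the interferon γ-activated, or GAS, element) and the core of the interferon-stimulated response element (GAAA, any 2 bases, GAAA), searched on both strands.
Fcgr1, chr3:96293970-96294219: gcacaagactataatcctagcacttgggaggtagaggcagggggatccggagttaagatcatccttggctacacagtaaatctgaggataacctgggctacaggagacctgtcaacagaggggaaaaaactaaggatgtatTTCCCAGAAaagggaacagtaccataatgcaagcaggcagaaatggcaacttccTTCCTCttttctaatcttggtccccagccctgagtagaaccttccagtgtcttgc
Fcgr4, chr1:171018676-171018925: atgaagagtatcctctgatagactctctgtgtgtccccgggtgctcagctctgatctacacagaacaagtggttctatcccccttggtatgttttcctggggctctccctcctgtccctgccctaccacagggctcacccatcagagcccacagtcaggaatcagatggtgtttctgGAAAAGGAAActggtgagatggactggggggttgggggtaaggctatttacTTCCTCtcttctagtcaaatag
Fcgr3, chr1:171059395-171059644: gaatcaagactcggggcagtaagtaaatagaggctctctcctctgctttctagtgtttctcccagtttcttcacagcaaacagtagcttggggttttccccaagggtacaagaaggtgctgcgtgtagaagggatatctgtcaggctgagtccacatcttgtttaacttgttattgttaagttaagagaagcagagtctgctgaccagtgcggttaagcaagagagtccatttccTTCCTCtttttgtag
The stretch of Fcgr1 holds a GAS match, TTCCCAGAA, and a PU.1 core. That of Fcgr4 holds an interferon-response core, GAAAAGGAAA, and a PU.1 core, and that of Fcgr3 a PU.1 core alone. Over windows that also take in the first 50 transcribed bases, the RefSeq promoters of Fcgr2b and Fcer1g held none of the 3 motifs. Of 32851 promoter windows of the same length, 28.3% hold the PU.1 core, 8.30% the GAS element and 3.44% the interferon-response core, so the matches are a description of these letters and no more.

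Of the 5 genes, Fcgr1 rose in α-KG, and the other 4 had log2 fold changes above 0 that did not pass the test over all genes (edgeR quasi-likelihood test, Benjamini-Hochberg adjusted p under 0.05). Over all 15126 genes tested, 2.73% passed by that rule, 2.39% as higher, and 51.7% had a log2 fold change above 0. At an unadjusted p under 0.05, 3 members were higher (Fcgr1, Fcgr2b and Fcer1g), where 27.8% of all genes tested passed, 16.3% as higher. This depended on the scaling between libraries. With library totals alone, the unadjusted p was 0.0013 for Fcgr1, 0.158 for Fcgr2b and 0.289 for Fcer1g (edgeR). In that fit 3336 of 15126 genes were under 0.05. The members' median log2 fold change was 0.57, where that of all genes tested was 0.02. None of the 5 had groups without overlap, where 5.65% of all genes tested had such groups, 3.64% with every α-KG library above every water library.

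Fcgr1 encodes the high-affinity receptor, CD64, which binds single IgG molecules and is carried by monocytes and macrophages. It had 3.27, 2.27, 4.13, 6.18 and 5.40 CPM (the count relative to the library total, scaled by TMM) in α-KG 1 to 5, against 0.773, 1.69, 2.42, 1.64 and 0.929 CPM in water 1 to 5. The groups overlapped through a single library on each side: 4 of the 5 α-KG libraries lay above every water library, and α-KG 2 lay just below water 3. The mean was 4.25 ± 1.58 CPM in α-KG and 1.49 ± 0.661 CPM in water (SD, n = 5 each), a 2.78-fold difference with a log2 fold change of 1.48 ± 0.34 SE (edgeR, adjusted p = 0.0433). The counts behind these values were small, 46 to 84 in α-KG libraries and 13 to 68 in water libraries. The call was lost without any of α-KG 1, α-KG 3, α-KG 4, α-KG 5, water 1, water 2, water 4 or water 5 (edgeR adjusted p = 0.0582 to 0.122, log2 fold change 1.29 to 1.55), and held without α-KG 2 (1.64, adjusted p = 0.0110) or water 3 (1.74, adjusted p = 0.0284).

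Fcgr3 encodes CD16, the low-affinity activating receptor for immune complexes. It had 20.8, 19.8, 37.96, 33.5 and 25.6 CPM in α-KG 1 to 5, against 22.1, 20.0, 24.8, 21.0 and 16.2 CPM in water 1 to 5. α-KG 3, α-KG 4 and α-KG 5 lay above every water library, while α-KG 1 and α-KG 2 lay among them. The means were 27.5 ± 7.97 CPM in α-KG and 20.8 ± 3.17 CPM in water (SD, n = 5 each), a log2 fold change of 0.40 ± 0.19 SE that did not pass (edgeR, adjusted p = 0.189).

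Fcgr4 encodes a further activating receptor, studied in mice for its binding of the IgG2a and IgG2b subclasses. It had 7.43, 6.91, 7.56, 14.2 and 14.2 CPM in α-KG 1 to 5, against 5.56, 9.73, 11.7, 9.61 and 4.79 CPM in water 1 to 5. The α-KG libraries fell into a low set, 1 to 3, inside the range of water, and a high pair, 4 and 5, above it. The means of 10.05 ± 3.77 CPM in α-KG and 8.28 ± 2.97 CPM in water (SD, n = 5 each) gave a log2 fold change of 0.26 ± 0.29 SE that did not pass (edgeR, adjusted p = 0.570), with a standard error larger than the change.

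Fcgr2b encodes the inhibitory receptor, CD32b. It had 21.3, 11.3, 23.2, 18.8 and 12.8 CPM in α-KG 1 to 5, against 11.8, 11.8, 13.8, 9.52 and 8.79 CPM in water 1 to 5. α-KG 1, α-KG 3 and α-KG 4 lay above every water library, and α-KG 2 and α-KG 5 did not. The means were 17.5 ± 5.24 CPM in α-KG and 11.1 ± 2.01 CPM in water (SD, n = 5 each), a log2 fold change of 0.65 ± 0.21 SE (edgeR, adjusted p = 0.0864). Without α-KG 2 it was called, at 0.77 (edgeR, adjusted p = 0.0209). That fit called 2683 of 15384 genes tested, against 413 of 15126 in the main fit. Fcgr2b was not called without any other single library (edgeR, adjusted p = 0.0725 to 0.202).

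Fcer1g encodes the FcRγ chain, which also serves the IgE receptor of mast cells and basophils and the collagen receptor GPVI of platelets. It had 50.6, 45.8, 73.6, 60.3 and 60.5 CPM in α-KG 1 to 5, against 40.2, 40.3, 46.7, 39.4 and 28.7 CPM in water 1 to 5. As for Fcgr1, 4 α-KG libraries lay above every water library and α-KG 2 lay just below water 3. The means were 58.2 ± 10.7 CPM in α-KG and 39.1 ± 6.47 CPM in water (SD, n = 5 each), a log2 fold change of 0.57 ± 0.16 SE (edgeR, adjusted p = 0.0642). It was called without α-KG 2 (0.65, adjusted p = 0.0200) or without water 3 (0.65, adjusted p = 0.0491) in edgeR, and by DESeq2 with all libraries (0.55, adjusted p = 0.0273). These fits called 2683 of 15384, 632 of 15236 and 1654 of 15966 genes tested, in that order. The main fit called 413 of 15126. Fcer1g was not called without any other single library.

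**Figure D1:**
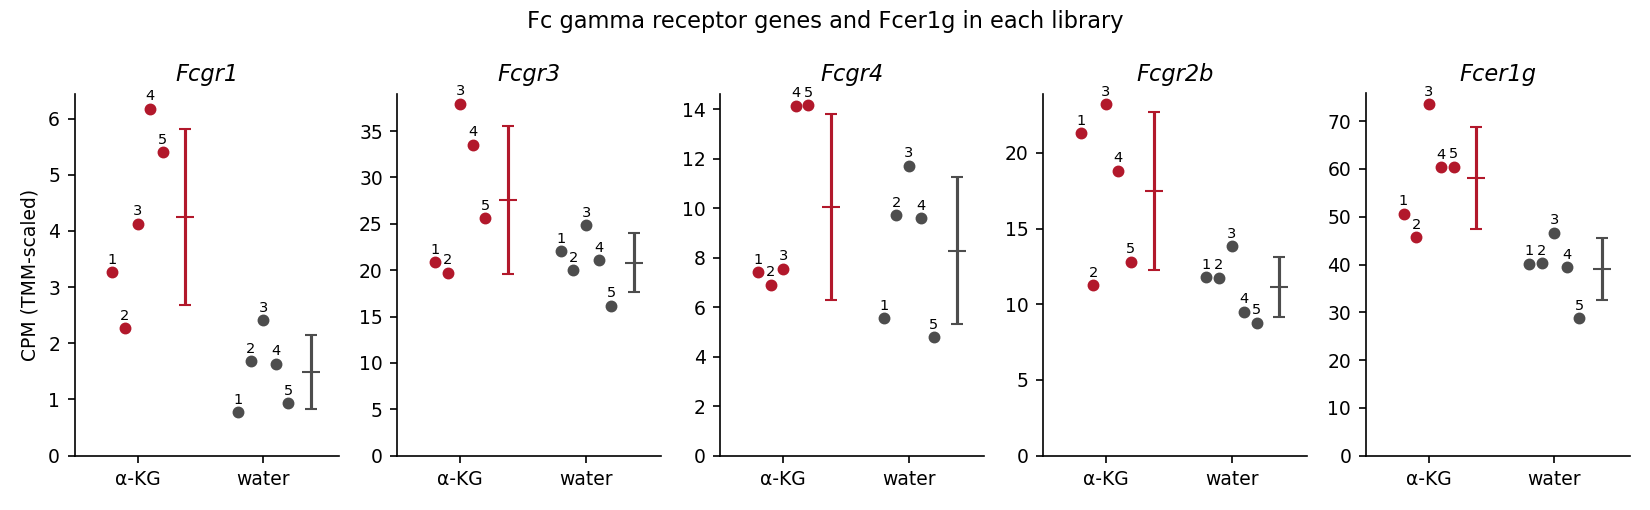
TMM-scaled CPM of the 5 genes (vertical axes, linear from 0) in the α-KG libraries (red) and the water libraries (grey); the number at a point is the library, and the bar gives mean ± SD (n = 5). α-KG 2 is the lowest α-KG library for all 5 genes and water 3 the highest water library for all 5; Fcgr1 has means of 4.25 in α-KG and 1.49 in water.

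In TMM-scaled CPM, α-KG 2 was the lowest of the α-KG libraries and water 3 the highest of the water libraries for each of the 5 genes. Relative to library totals without that scaling, the lowest α-KG library was α-KG 5 for Fcgr2b and α-KG 3 for Fcgr4. α-KG 2 stayed the lowest for the other genes, and water 3 the highest water library for each of the 5. The coefficient of variation among libraries was 18.4% in α-KG and 16.6% in water for Fcer1g, and higher for Fcgr1, at 37.1% in α-KG and 44.4% in water, and for Fcgr4, at 37.5% in α-KG and 35.9% in water. Those of Fcgr2b and Fcgr3 were larger in α-KG, at 30.0% and 28.9%, than in water, at 18.0% and 15.2%, a difference that was not tested.

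Fcgr2b and Fcgr3 have near-identical stretches, and the deposited values show that their reads were shared out. Both held fractional values in 9 of the 10 libraries, and in all 10 their sum was a whole number within 0.015. Fcgr1, Fcgr4 and Fcer1g held whole numbers alone. Of the 50-base windows of their GENCODE transcripts, 166 occur in both genes, which is 2.92% of the windows of Fcgr2b and 9.58% of those of Fcgr3, and no other pair among the 5 genes shares any. The values of Fcgr2b and Fcgr3 taken singly are therefore uncertain by the part of the reads that was divided. The sum of the pair was 42.2, 31.0, 61.2, 52.4 and 38.4 CPM in α-KG 1 to 5, against 33.9, 31.8, 38.7, 30.6 and 25.0 CPM in water 1 to 5. Counted as a single gene, an alternative chosen after seeing these fractions, the pair had a log2 fold change of 0.49 ± 0.18 SE (edgeR, adjusted p = 0.113).

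Per length of their exons, the order of the levels was Fcer1g, Fcgr3, Fcgr4, Fcgr2b and Fcgr1. Fcer1g stood at 66.6 ± 12.2 CPM per kilobase in α-KG and 44.7 ± 7.40 in water. Fcgr3 stood at 15.9 ± 4.59 in α-KG and 12.0 ± 1.82 in water, and Fcgr4 at 7.999 ± 3.002 in α-KG and 6.60 ± 2.36 in water. Fcgr2b stood at 3.02 ± 0.905 CPM per kilobase in α-KG and 1.92 ± 0.347 in water, and Fcgr1 at 1.64 ± 0.609 in α-KG and 0.575 ± 0.255 in water (SD, n = 5 each). Each gene stood above the next in all 10 libraries, although the ranges over libraries of Fcgr3 and Fcgr4 overlapped in water and those of Fcgr2b and Fcgr1 in α-KG. The exons of Fcgr2b span 5790 bases over 7 transcripts. With the longest coding transcript as the length, Fcgr4 stood above Fcgr2b in 3 α-KG and 5 water libraries, with ranges that overlapped in both groups, so the order of this pair depends on the length used. Among 14799 tested genes with a length, the level of Fcer1g lay above 97.7% and that of Fcgr1 above 33.6%.

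A ratio of members within a library does not move with the scaling between libraries, and 10 such ratios were taken as a description. The count of Fcgr4 was 2.27, 3.04, 1.83, 2.29 and 2.63 times that of Fcgr1 in α-KG 1 to 5, against 7.20, 5.76, 4.85, 5.86 and 5.15 times in water 1 to 5. The groups were apart, with a difference of mean log2 ratios of -1.26 that stayed between -1.35 and -1.17 whichever library was left out. A lack of overlap in a ratio to Fcgr1 was common in these libraries: 23.2% of the other tested genes had a ratio to Fcgr1 that was lower in every α-KG library than in every water library. Fcgr1 over the sum of Fcgr2b and Fcgr3 was also apart, at 0.0676 to 0.140 in α-KG and 0.0228 to 0.0625 in water. The other 8 ratios overlapped.

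The activating receptor of Fcgr3 and the inhibitory one of Fcgr2b are often set against each other. The ratio of Fcgr3 to Fcgr2b was 0.980, 1.76, 1.63, 1.78 and 2.0 in α-KG 1 to 5, against 1.87, 1.70, 1.80, 2.21 and 1.85 in water 1 to 5. Apart from α-KG 1, where Fcgr2b was as high as Fcgr3, the groups lay over each other, and the difference of mean log2 ratios was -0.24 with α-KG 1 and -0.068 without it. α-KG 1 also had the most B cell marker RNA, with the 7 markers summing to 490 CPM against 90.7 to 189 CPM in the other α-KG libraries and 105 to 185 CPM in water. It also had the lowest mean of the erythroid markers, a mean log2(CPM + 1) of 7.87 against 9.76 to 10.5 in α-KG 2 to 5 and 9.44 to 10.6 in water. By their summed CPM, water 3 (19934) lay below α-KG 1 (22283). Without α-KG 1 the log2 fold change of Fcgr2b was 0.56 (edgeR, adjusted p = 0.170). With the B cell marker mean as a covariate, added after seeing the data, the log2 fold changes were 0.54 ± 0.20 SE for Fcgr2b, 0.43 ± 0.19 for Fcgr3 and 1.59 ± 0.34 for Fcgr1 (edgeR, adjusted p = 0.139, 0.189 and 0.0428). Fcgr2b over Fcer1g was 0.421, 0.245, 0.316, 0.312 and 0.212 in α-KG 1 to 5, against 0.294, 0.292, 0.296, 0.242 and 0.305 in water 1 to 5, a wider range in α-KG than in water.

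**Figure D2:**
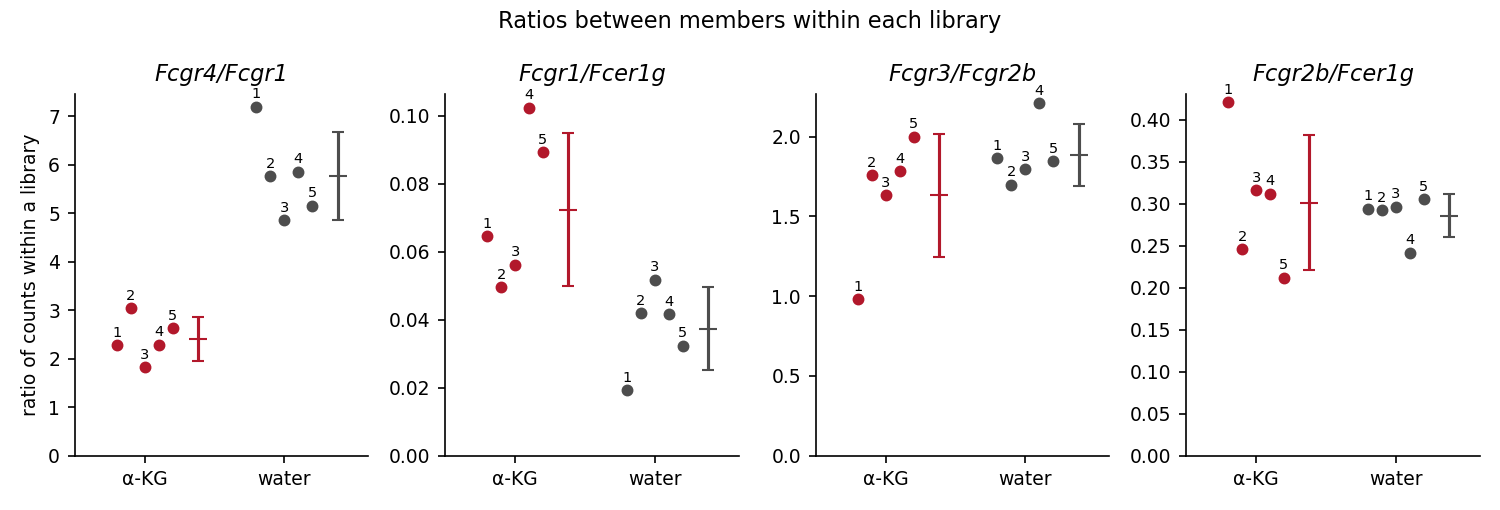
Ratios of counts between 2 members within each library (vertical axes, linear from 0) for α-KG (red) and water (grey), with the library number at each point and mean ± SD bars (n = 5). Fcgr4 over Fcgr1 lies between 1.83 and 3.04 in α-KG and between 4.85 and 7.20 in water; the ratio of Fcgr3 to Fcgr2b overlaps, with α-KG 1 lowest at 0.980.

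Within the groups, the profile of Fcgr4 was among the nearest to that of Fcgr1. After the mean of each group was taken off the log2 CPM of each gene, the root mean square difference between them over the 10 libraries was 0.21 on the log2 scale, and Fcgr4 was the fourth nearest to Fcgr1 of 12091 named genes, whose median difference from Fcgr1 was 0.60. C1qc and C1qb, genes of complement component C1q made by macrophages, were among the 3 nearest to both Fcgr1 (0.16 and 0.18) and Fcgr4 (0.14 and 0.16). Gngt2, which encodes a G protein γ subunit, was nearest to Fcgr1 at 0.16. All these genes were high in α-KG 4 and α-KG 5 among the α-KG libraries and in water 3 among the water libraries. The points share library scaling and marrow composition, so likeness is a description.

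With the difference between the groups kept in, the profiles of Fcgr1 and Fcgr4 parted, at a root mean square difference of 0.63. Fcgr1 then lay nearest to Gngt2 (0.22), Clec4a1 (0.27), Slfn5 (0.29), C1qc (0.30) and Aif1 (0.30), where the median over named genes was 0.95. Of these 5, Clec4a1, a C-type lectin gene, Slfn5, a schlafen family gene, and Aif1, the gene of the macrophage protein IBA1, rose in α-KG, by 1.36 ± 0.32, 1.37 ± 0.20 and 1.45 ± 0.29 SE on the log2 scale (edgeR, adjusted p = 0.0478, 0.0154 and 0.0278). Fcgr4 lay nearest to Cadm1, Cfap54, Slc39a4, Lag3 and Itgax, at 0.20 to 0.27, none of which was called.

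Fcer1g and Fcgr3 had the closest profiles among the members over all libraries, with a root mean square difference of 0.16, although 192 named genes lay nearer to Fcer1g. Nearest to Fcer1g were Cers6, Fam129a, Fndc3b, Slfn1 and Csf2rb, the gene of the β chain shared by the receptors of GM-CSF, IL-3 and IL-5, at 0.066 to 0.086, with log2 fold changes of 0.50 to 0.61. Among the 5 nearest to Fcgr3 were Ifitm2, Rnf130, Cd300lb and Gcnt2, at 0.11 to 0.13, and nearest to Fcgr2b were Celf2, Nabp1, Ccdc50, Plekhb2 and Septin6, at 0.056 to 0.12.

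**Figure D3:**
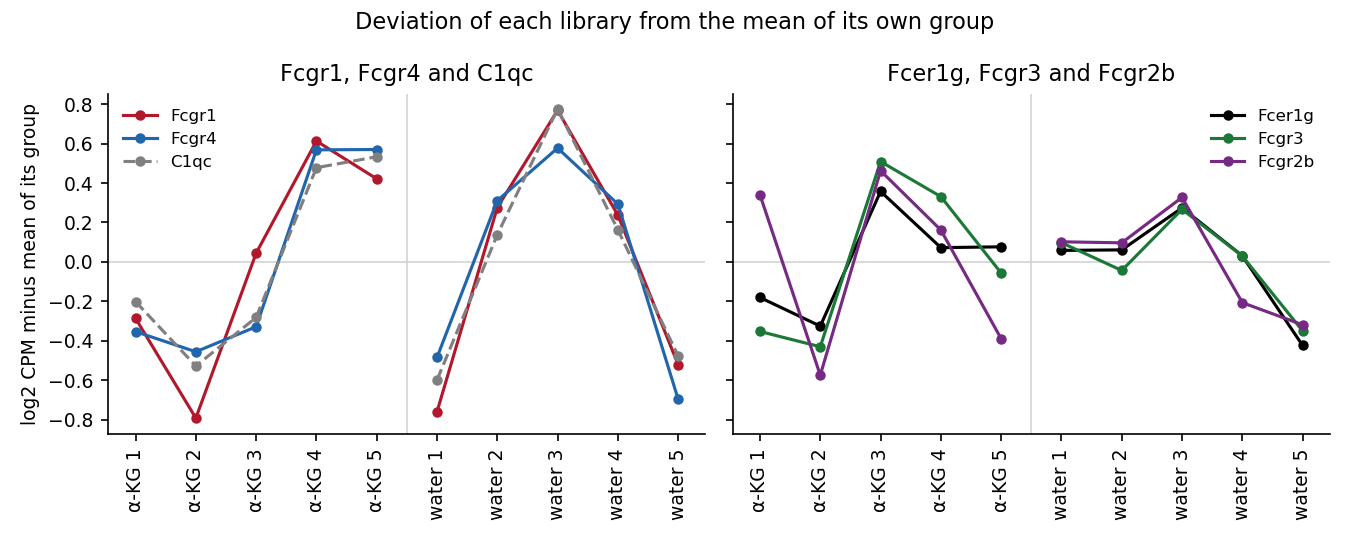
Log2 CPM of each library minus the mean of its own group (vertical axis) for Fcgr1, Fcgr4 and C1qc (left) and Fcer1g, Fcgr3 and Fcgr2b (right), with α-KG libraries left of water libraries; lines only join the points of a gene. Fcgr1, Fcgr4 and C1qc are all above 0 in α-KG 4, α-KG 5, water 2, water 3 and water 4, with Fcgr1 lower than the other 2 in α-KG 2 and higher in α-KG 3; Fcgr2b is above 0 in α-KG 1, where Fcer1g and Fcgr3 are below 0.

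Genes of monocytes and macrophages were higher in the same libraries. All 12 monocyte markers were tested, 11 had a log2 fold change above 0 and 7 rose, with a median of 1.03, and their summed level ran from 1103 to 2109 CPM in α-KG and from 843 to 1046 CPM in water. Lyz2 was the largest part of this sum, at 744 ± 185 CPM in α-KG and 478 ± 63.6 CPM in water (SD, n = 5 each), and was not called (edgeR, adjusted p = 0.106). Of 14 macrophage markers 12 were tested, all 12 lay above 0 and 5 rose, with a median of 1.01 and a summed level of 95.5 to 160 CPM in α-KG and 48.4 to 98.2 CPM in water. Marco and Timd4 were not tested and were at 0 in some libraries. α-KG 2 had the lowest sum of the α-KG libraries for both lists, and water 3 the highest of the water libraries. The 11 neutrophil markers gave no call, with a median of 0.10 and a summed level of 3355 to 6630.5 CPM in α-KG and 3275 to 6025 CPM in water. NK cell markers, whose cells carry the receptor of Fcgr3, summed to 12.4 to 25.7 CPM in α-KG and 9.66 to 15.3 CPM in water. All 6 tested lay above 0 (median 0.88), with no call. Mast cell and basophil markers, whose cells carry the FcRγ chain, summed to 189 to 420 CPM in α-KG and 159 to 298 CPM in water. All 6 lay above 0 (median 0.76), with no call. The 7 B cell markers, whose cells carry the inhibitory receptor, also all lay above 0 (median 0.48), with no call. All 6 T cell markers lay above 0 (median 0.79), with a summed level of 6.47 to 15.3 CPM in α-KG and 5.11 to 8.53 CPM in water. Of these, Cd3e, of the T cell receptor complex, rose (log2 fold change 1.12 ± 0.26 SE, edgeR adjusted p = 0.0445). Medians of the eosinophil and granulocyte precursor lists lay below 0, at -0.23 and -0.016, with no call. Of 9 erythroid markers 6 lay below 0, with a median of -0.56 and no call, and a summed level of 22283 to 77811 CPM in α-KG and 19934 to 52116 CPM in water. Most of that sum was the globin genes Hbb-bs and Hba-a1, whose log2 fold changes lay above 0, at 0.43 ± 0.47 and 0.36 ± 0.42 SE. The part of these cells in the members' values was not tested. In RNA from a mixture of marrow cells, more cells of a type and more RNA per cell cannot be told apart.

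With the mean of the monocyte markers as a covariate, the log2 fold changes were 0.026 ± 0.41 for Fcgr1, 0.00046 ± 0.23 for Fcer1g, -0.075 ± 0.33 for Fcgr2b, -0.39 ± 0.26 for Fcgr3 and -0.76 ± 0.43 for Fcgr4 (SE; edgeR, adjusted p = 1.00 for each). With the macrophage markers they were 0.055, 0.12, -0.099, -0.23 and -0.69 for the same genes in that order (edgeR, adjusted p = 1.00 for each). Both covariates were themselves higher in α-KG, so the treatment and these markers cannot be told apart in this design. With the neutrophil markers as a covariate Fcgr1 stood at 1.46 (edgeR, adjusted p = 0.0620) and Fcer1g was called at 0.54 (adjusted p = 0.0489).

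**Figure D4:**
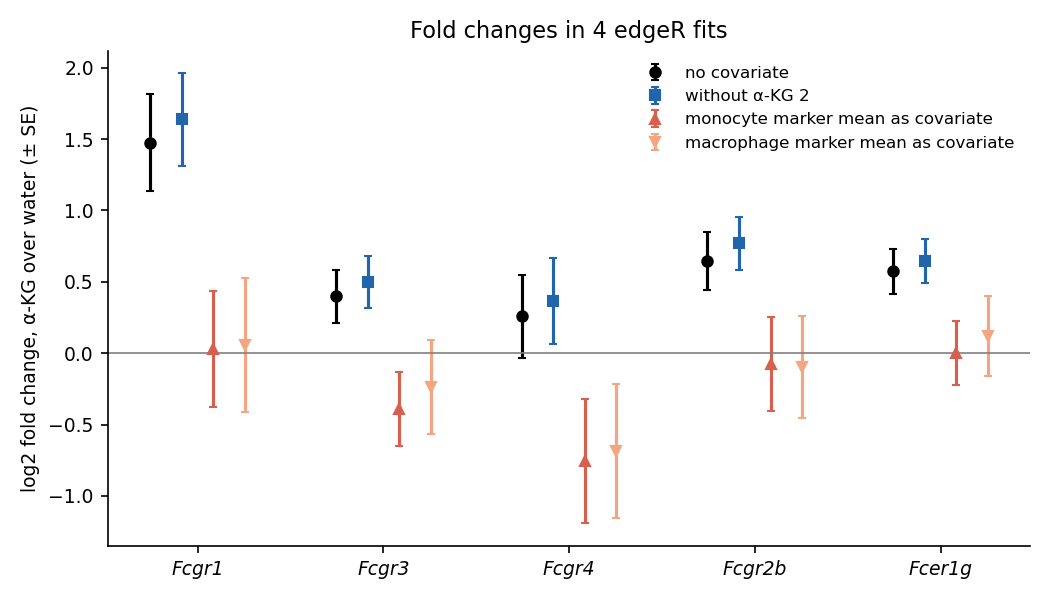
Log2 fold change, α-KG over water, ± SE (vertical axis) of each gene in 4 edgeR fits: all libraries with no covariate (circles), without α-KG 2 (squares), and with the monocyte (up triangles) or macrophage (down triangles) marker mean as covariate. With a covariate the values run from -0.76 for Fcgr4 to 0.12 for Fcer1g, where Fcgr1 stands at 1.48 with none. The fit without α-KG 2, the lowest α-KG library for each gene in TMM-scaled CPM, called 2683 of 15384 genes tested.

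Immunoglobulin transcripts lay on the other side of 0. Beside the IgG heavy chains, the ligand list took in light chains and heavy chains of other classes, Ighm and Igha. All 9 tested genes of the ligand list, immunoglobulin chains and the joining chain gene Jchain, stood below 0 in log2 fold change (median -0.52), and 1 fell, where 0.344% of all genes tested fell. The gene that fell was no IgG heavy chain but the λ light chain gene Iglc1. It stood at 2.49 ± 0.464 CPM in α-KG and 6.91 ± 2.41 CPM in water (SD, n = 5 each; log2 fold change -1.49 ± 0.26 SE, edgeR adjusted p = 0.0184). None of the IgG heavy chain genes tested passed. Among these, singled out after their values were seen, Ighg2c had 10, 133, 67, 49 and 67 counts in α-KG 1 to 5, against 296, 173, 504.52, 286 and 233 counts in water 1 to 5. Its groups were apart and its log2 fold change of -1.71 ± 0.48 SE did not pass (edgeR, adjusted p = 0.0692). Ighg1, Ighg2b and Ighg3 were at -0.45, -0.52 and -1.47 (adjusted p = 0.233 to 0.420) and overlapped. The 4 tested plasma cell markers gave no call and did not move one way. Mzb1 had 1.28 ± 0.621 CPM in α-KG and 2.05 ± 0.341 CPM in water (SD, n = 5 each; log2 fold change -0.65 ± 0.30 SE, edgeR adjusted p = 0.182), and Sdc1 a log2 fold change of 0.0061 ± 0.36 SE (edgeR, adjusted p = 0.993). The sum of the list, 41.3 to 48.7 CPM in α-KG and 37.3 to 43.7 CPM in water, was mostly Xbp1, which many cell types express, at 39.95 ± 4.80 CPM in α-KG and 34.2 ± 2.10 CPM in water (SD, n = 5 each). Tnfrsf17 was not tested and was at 0 in some libraries. The part of plasma cells in the immunoglobulin values was not tested.

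Among 10 tested genes of the other Fc receptors, 8 stood above 0 in log2 fold change (median 0.61), and 1 rose. Fcgrt, which encodes the neonatal Fc receptor that returns IgG from endosomes to the cell surface, stood at 8.59 ± 1.601 CPM in α-KG and 3.98 ± 1.01 CPM in water (SD, n = 5 each), without overlap, a log2 fold change of 1.12 ± 0.20 SE (edgeR, adjusted p = 0.0219). Of 13 tested relatives and partner receptors of the γ chain, 12 lay above 0 and none was called. Those with the smallest p were Trem2, a macrophage receptor that signals through DAP12, at 1.13 ± 0.29 SE, and Pira2, which pairs with the FcRγ chain, at 0.85 ± 0.22 (edgeR, adjusted p = 0.0581 and 0.0592).

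Of the signalling genes downstream, the kinase and adaptor list had 21 of 22 genes above 0 in log2 fold change (median 0.39) and no call. Lyn, the Src family kinase that phosphorylates ITAM and ITIM tyrosines, was at 0.60 ± 0.16 SE and the phosphoinositide 3-kinase gene Pik3cd at 0.60 ± 0.15 (edgeR, adjusted p = 0.0577 for both). On the inhibitory side, 2 of 13 genes rose. Ptpn6, encoding the phosphatase SHP-1, stood at 77.6 ± 10.1 CPM in α-KG and 52.0 ± 5.37 CPM in water (SD, n = 5 each), without overlap (log2 fold change 0.58 ± 0.13 SE, edgeR adjusted p = 0.0375). Sirpa, encoding the receptor for the "do not eat me" signal CD47, stood at 126 ± 21.8 CPM in α-KG and 75.0 ± 12.1 CPM in water (SD, n = 5 each; 0.75 ± 0.16 SE, edgeR adjusted p = 0.0368). Inpp5d, encoding SHIP-1, which the ITIM of the Fcgr2b receptor recruits, was at 0.53 ± 0.14 SE (edgeR, adjusted p = 0.0616) and is named outside the rule for list genes.

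The 7 genes of the phagocyte oxidase, which makes superoxide after receptor engagement, lay between 0.16 and 0.39, with no call, and Cyba and Rac1 had the smallest p (edgeR, adjusted p = 0.151 and 0.174). Among 13 factors and receptors known to raise or lower Fc gamma receptors, all 13 lay above 0 and 2 rose. They were the chains of the receptor of interferon γ, a cytokine that induces Fcgr1 in myeloid cells. Ifngr1 stood at 49.0 ± 7.66 CPM in α-KG and 30.4 ± 4.40 CPM in water, and Ifngr2 at 22.2 ± 3.29 CPM in α-KG and 15.3 ± 0.557 CPM in water (SD, n = 5 each; log2 fold changes 0.68 ± 0.14 and 0.54 ± 0.11 SE, edgeR adjusted p = 0.0309 and 0.0354). The groups were apart for Ifngr2 and overlapped for Ifngr1.

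**Figure D5:**
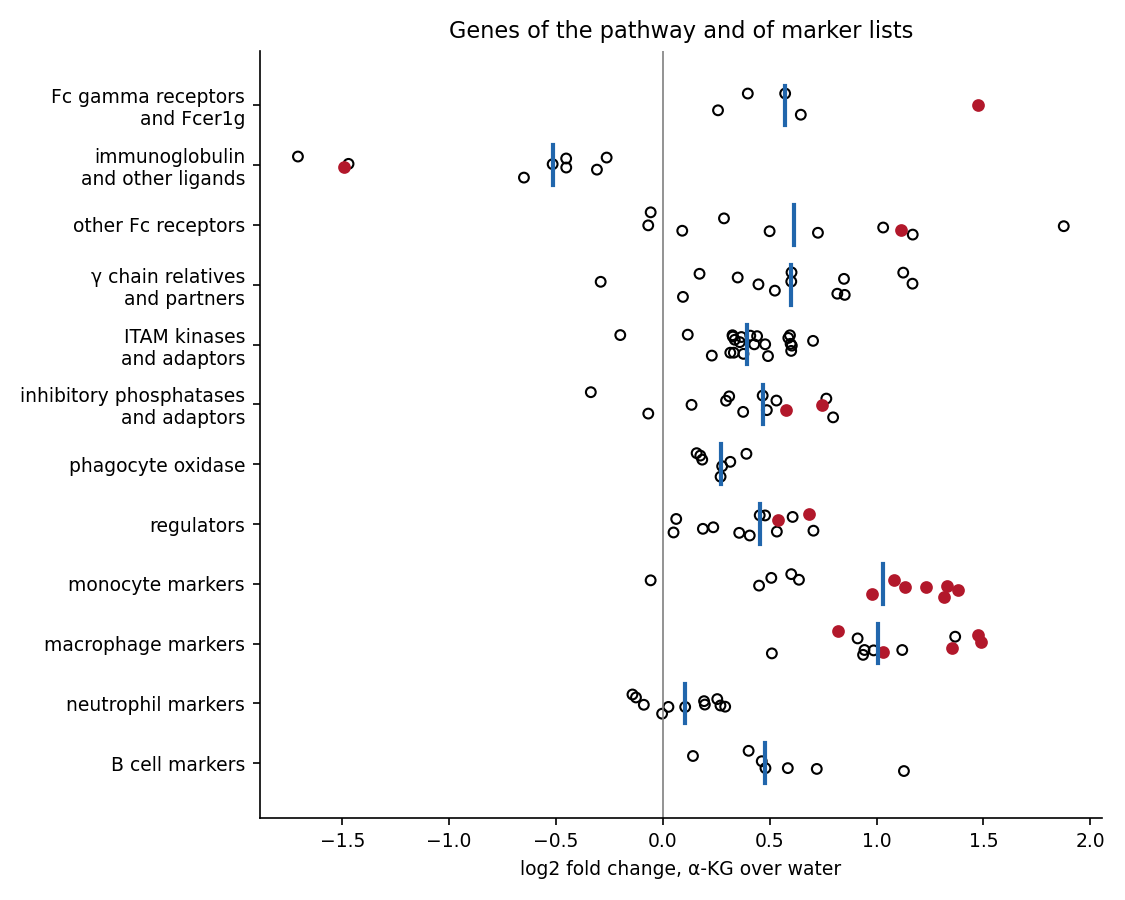
Log2 fold change, α-KG over water (horizontal axis), of each tested gene in the members, 7 pathway lists and 4 of the marker lists (rows); filled red points passed an adjusted p of 0.05 over all genes tested and blue bars are list medians. Of the rows, the one of immunoglobulin chains and Jchain alone has every point below 0, and the monocyte and macrophage markers hold 7 and 5 filled points.

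The genes beside the members gave no call. Taking the nearest 3 protein-coding genes on each side of each member gave 18 that are no members, of which 6 passed the filter on low counts, with adjusted p of 0.304 to 0.996 (edgeR). Txnip, beyond Fcgr1, had a log2 fold change of -0.24 ± 0.15 SE. Sdhc, next but one to Fcgr3, was at 0.0011 ± 0.10 SE, and Fcrla, before Fcgr2b, at -0.057 ± 0.41. The antisense gene Gm38204 overlaps Fcgr2b with 4 counts over all libraries, and Mir6546 in Fcgr3 and Gm26110 in Fcgr4 had 0 counts.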

How the data were processed

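Total RNA of bone marrow cells was depleted of ribosomal RNA with RNase H and sequenced on an Illumina instrument, per the labels. The submitters' processing notes name bcl2fastq, DRAGEN and GRCm38, without roles. No source used here names the annotation, the quantifier or the strand setting. As deposited by the authors, the table gives an estimated count per gene, with no scaling between libraries, and 10.3% of the entries hold fractions.

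Counts were rounded. filterByExpr (minimum count 10, minimum total 15) kept 15126 genes, all 5 members among them. These were tested with edgeR 4.0.16 in R 4.3.3 (TMM scaling, robust quasi-likelihood F test, two-sided, Benjamini-Hochberg over all genes, threshold 0.05). The standard error is the absolute log2 fold change over the square root of F. On simulated counts of 15126 genes, 8.46% of 1.5-fold, 54.6% of 2-fold and 88.0% of 4-fold changes were recovered. These shares describe the simulated counts, and recovery in the libraries themselves was not tested. Profiles were compared on log2 CPM (prior count 2), and marker means log2(CPM + 1). DESeq2 1.42.0, limma 3.58.1, other scalings and filters, marker covariates and leaving out each library were alternatives.

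Members and lists were chosen with earlier results of these data known. Named were all members, called genes of each pathway list (at most 4; otherwise the 2 with the smallest p), the 5 nearest named genes and the nearest 3 coding genes on each side; a few genes so taken are not reported here. Promoter sequences and start sites are from RefSeq on GRCm38.p6, where all 5 members matched. Protein sequences were not used here.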

Additional observations from a re-analysis of the deposited data

Results flagged for a closer look

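The ratio of Fcgr2b to Fcer1g was 0.242 in water 4, where the other water libraries lay between 0.292 and 0.305, a gap wider than a test for single outlying values allows in 5 samples. This ratio uses Fcgr2b taken singly, which is uncertain because its reads were divided with Fcgr3. The summed pair over Fcer1g was not among the ratios taken. Among the 28 groups of values looked at, the ratio of Fcgr2b to Fcer1g in water was the 1 that stood out, and chance alone marks about 5% of groups. That count does not extend to the marker lists, where α-KG 1 also lay far from the other α-KG libraries. Its B cell markers summed to 490 CPM against 90.7 to 189 CPM. Its erythroid marker mean was 7.87 against 9.76 to 10.5 (log2(CPM + 1)).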

How the results depend on the processing

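No paired analysis was possible because nothing in the labels links a library of one group to a library of the other. edgeR called 413 genes, 361 higher and 52 lower, and 1 member. The gene count was 1159 with library totals alone (117 higher, 1042 lower), 1654 with DESeq2 (967 higher, 687 lower), 273 with limma voom, 265 with the B cell mean as a covariate (added after seeing the data), and 0 with the monocyte or macrophage mean, with 206 and 179 genes at an unadjusted p under 0.05. Leaving out 1 library moved it between 0 and 2683, the highest being without α-KG 2. Of these fits, 4 gave 0 with 3232 to 3672 genes at an unadjusted p under 0.05 in edgeR. The members called were 2 with DESeq2 (Fcgr1 and Fcer1g), where 1654 of 15966 genes tested were called. In the main fit 413 of 15126 were. No member was called with limma voom (Fcgr1 at 1.45, adjusted p = 0.0571) or with the monocyte or macrophage mean. Leaving out a library gave 0 to 3 members, with 3 in the fit without α-KG 2. With the neutrophil mean the 1 called was Fcer1g in place of Fcgr1. Fold changes changed sign with the monocyte and macrophage means for Fcgr2b (-0.075 and -0.099), Fcgr3 (-0.39 and -0.23) and Fcgr4 (-0.76 and -0.69), and for Fcgr4 with library totals alone (-0.047), where the median of all genes was -0.22 and Fcgr4 stood 0.17 above it. The other members were also lower with library totals alone, at 1.18 for Fcgr1, 0.40 for Fcgr2b, 0.077 for Fcgr3 and 0.28 for Fcer1g. Relative to that median they stood at 1.40, 0.62, 0.30 and 0.50, against 1.46, 0.63, 0.38 and 0.55 in the main fit. The cause of these changes was not tested. Over the fits that left out a library, log2 fold changes ran from 1.29 to 1.74 for Fcgr1, 0.52 to 0.77 for Fcgr2b, 0.25 to 0.50 for Fcgr3, 0.097 to 0.42 for Fcgr4 and 0.47 to 0.65 for Fcer1g. Fcgr1 had the fewest counts of the members, 13 at the lowest, and whether depth limits its value was not tested.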
